A study of Homo sapiens with 6 samples.

Results

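The genes described here are 9 tetraspanins, CD9, CD63, CD81, CD82, CD151, TSPAN3, TSPAN4, TSPAN14 and TSPAN15, picked by symbol from the 17318 genes listed for each library. mRNA was measured in the gastric cancer cell line SNU216 (human, established) 48 h after transfection with a control siRNA (siControl, 3 libraries) or an siRNA against OXTR, the oxytocin receptor gene (siOXTR, 3 libraries). All 6 libraries came from this single line. Nothing in the labels ties the 3 libraries of a group to separate cultures, and the p-values below therefore cover the spread among these libraries alone, which may be technical. The series title concerns the oxytocin receptor and YAP, a co-activator of transcription held in check by Hippo signalling. The siRNA sequences were not used here.

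Tetraspanins are small proteins that cross the membrane several times and expose a short and a long loop outside the cell. The long loop carries a Cys-Cys-Gly motif and paired cysteines that hold its fold. They act mostly by binding other membrane proteins sideways, among them integrins, immunoglobulin-type receptors and proteases, and gathering them into patches of the plasma membrane, the tetraspanin web. Several of them, CD63 above all, are carried into multivesicular endosomes and exosomes, and one subgroup (TspanC8) escorts the protease ADAM10 to the cell surface. In epithelial tumours they are known mainly for their effects on adhesion to laminin, migration and vesicle release.

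In brief, mRNA of all 9 genes was lower in siOXTR, by between 1.33-fold (TSPAN14) and 2.03-fold (CD82). CD81 and CD82 fell most, and CD63, TSPAN14 and TSPAN15 least. The genes of their membrane partners fell further, by a median of 1.05 on the log2 scale. Levels are FPKM (fragments scaled for library size and transcript length), which can be compared between genes. Differences are log2 fold changes, siOXTR minus siControl, on log2(FPKM + 1), a scale that understates the change of genes with low values. In bulk RNA of this kind, fewer cells of a type and less RNA per cell cannot be told apart.

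OXTR went from 39.37, 38.87 and 39.02 FPKM in siControl to 4.76, 4.65 and 5.34 FPKM in siOXTR, so every library followed its label. Within a group, Pearson's r between libraries was 0.9954 to 0.9977 over 11550 tested genes, which share these libraries, and across groups 0.9736 to 0.9761. Of the tested genes 2036 (17.6%) were lower and 4869 (42.2%) higher in siOXTR (limma, adjusted p under 0.05). Scaling by a trimmed mean of M-values (TMM) gave 2806 lower (24.3%) and 2267 higher (19.6%), and the median log2 fold change of all genes moved by -0.113. Of 6 epithelial markers the keratin genes KRT8, KRT18 and KRT19 were at 1494.86 FPKM or more in each library and KRT7 at 6.93 to 9.59 FPKM. KRT19 was higher in siOXTR as deposited (log2 fold change 0.27, adjusted p = 0.011, limma) but not after TMM scaling. KRT8, KRT18 and KRT7 did not pass the threshold. The adhesion genes EPCAM and CDH1, also on that list, were lower in siOXTR. EPCAM was at 136.34 to 149.83 against 280.41 to 310.91 FPKM and CDH1 at 19.80 to 20.27 against 73.32 to 79.70 FPKM. The 5 listed fibroblast markers summed to 1.62 to 2.02 FPKM in siControl and 0.61 to 0.81 FPKM in siOXTR, 4 leukocyte markers to 1.3 to 1.89 and 1.77 to 3.00 FPKM, and the 3 endothelial markers to 0.59 to 0.96 and 0.39 to 0.62 FPKM. The highest of these markers were PTPRC (0.53 to 1.67 FPKM) and LYZ (0.65 to 1.24 FPKM) of leukocytes, LUM of fibroblasts (0.38 to 1.33 FPKM) and CDH5 of endothelium (0.28 to 0.83 FPKM). CD3E was at 0 in 5 of 6 libraries, DCN at 0.02 FPKM or less and VWF likewise. The part of these cells in the results was not tested.

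The 9 genes lie on 4 chromosomes (GRCh38, GENCODE release 29). CD81 (11, 2376177 to 2397419), CD151 (11, 832843 to 839831), TSPAN4 (11, 842808 to 867116) and CD82 (11, 44564427 to 44620363) share chromosome 11, CD9 (6199715 to 6238271) and CD63 (55725323 to 55729707) chromosome 12, TSPAN15 (69451473 to 69507669) and TSPAN14 (80454166 to 80533123) chromosome 10, and TSPAN3 (77041404 to 77083984) is on chromosome 15. CD151 and TSPAN4 are neighbours 2976 bases apart. POLR2L, an RNA polymerase subunit gene on the opposite strand, overlaps the end of CD151 and extends into that gap. It rose from 44.41, 47.15 and 52.96 to 56.69, 70.55 and 59.93 FPKM (adjusted p = 0.00276, limma) while both tetraspanin genes fell. The sources at hand do not state whether reads were counted by strand, so reads of CD151 and POLR2L in their overlap cannot be told apart. The same holds for reads of CD81, CD82, CD63, CD151, TSPAN4 and TSPAN14 and those of their annotated antisense RNAs. TSPAN3 overlaps 3 other annotated genes, a lincRNA on the opposite strand and the others on its own strand. CD9 overlaps 1 RNA gene on the opposite strand. Whether reads of these were counted for TSPAN3 or CD9 is not stated either.

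The proteins share the family's plan, which follows from the choice of tetraspanins. Translated from their main GENCODE transcripts they are 228 (CD9) to 294 (TSPAN15) residues long. Each had 4 predicted membrane segments, or 5 for CD63 and TSPAN15, counted as separate windows of 19 residues whose Kyte-Doolittle hydropathy averaged 1.6 or more. All held a Cys-Cys-Gly motif, and CD9, CD63 and CD81 held 2. They carried 10 (CD9) to 15 (CD63 and CD151) cysteines and 1 to 4 N-glycosylation sequons, with 3 in CD63, CD82 and TSPAN15, 4 in TSPAN3 and 1 in CD81, CD151 and TSPAN14.

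Start-site windows in RefSeq (GRCh38.p14) matched 6 members, with 22 windows among CD9, CD63, CD82, TSPAN4, TSPAN14 and TSPAN15, and the 250 bases before each start were searched on both strands for short motifs. CD82 and TSPAN15 are shown because each has 1 window there and they differ in response, CD82 with a large fall and TSPAN15 with a small one. The CD82 window, chr11:44565413-44565590, is printed from 250 to 73 bases before the RefSeq start, so that it ends before an annotated exon, and the TSPAN15 window, chr10:69451215-69451464, in full. The CD82 window lies inside the GENCODE span of CD82, which begins upstream at 44564427. The TSPAN15 window ends before the GENCODE start of TSPAN15 at 69451473. Both are on the plus strand, 5′ to 3′, and capitals mark matches on either strand to GGGCGG, a site of the factor SP1, or to the CCAAT box.
CD82: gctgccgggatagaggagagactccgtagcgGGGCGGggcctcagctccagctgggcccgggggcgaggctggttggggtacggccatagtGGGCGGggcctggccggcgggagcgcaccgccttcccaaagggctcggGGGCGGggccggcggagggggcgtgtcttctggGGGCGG
TSPAN15: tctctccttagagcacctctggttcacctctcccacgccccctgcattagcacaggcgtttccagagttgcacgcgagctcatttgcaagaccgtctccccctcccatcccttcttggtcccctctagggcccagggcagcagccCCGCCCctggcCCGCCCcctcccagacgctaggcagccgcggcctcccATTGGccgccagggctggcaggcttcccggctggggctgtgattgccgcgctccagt
The CD82 stretch held 4 copies of GGGCGG, at 219, 159, 111 and 78 bases before the start, and 77% of the printed bases were G or C against a median of 58% over all windows. TSPAN15 held 2 copies of GGGCGG on its other strand and 1 CCAAT box. GGGCGG was in 16 of the 22 member windows and in 42.6% of all 35116 windows. GGAATG, the core bound by TEAD factors, the DNA-binding partners of YAP, was in 2 of the 22, in windows of CD63 and TSPAN14, against 11.9% of all. The E-box CACGTG was in 2 of 22 against 6.34%. The CCAAT box was in 3 of 22 against 32.0%. The letters TATAAA of the TATA box were in none against 10.7%. By gene, GGGCGG was in 6 of the 6 members, the CCAAT box in 3, GGAATG and CACGTG in 2 each and TATAAA in none. Some genes have several windows (8 for CD63, 5 for TSPAN4), so the 22 are not separate units. The shares over all windows count windows and not genes, so the counts by gene have no share to set beside them. These matches are letters in a window and not bound sites.

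**Figure D1:**
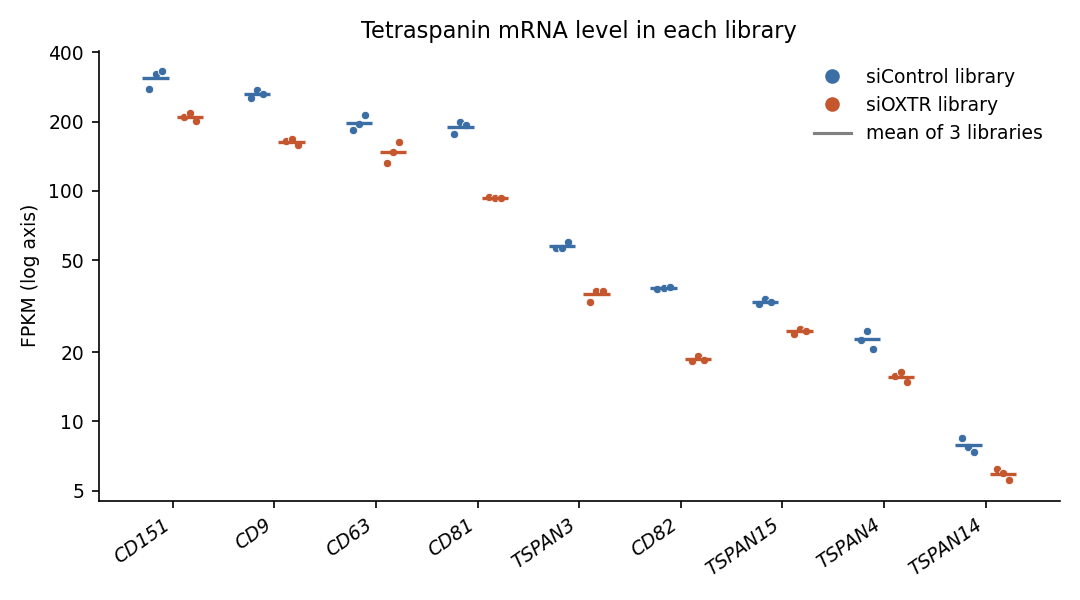
FPKM (log axis) of the 9 tetraspanins in each of the 3 siControl and 3 siOXTR libraries, ordered by siControl level, with lines at the group means. For each gene all siOXTR points lie below all siControl points, from CD151 (309.8 to 210.0 FPKM on average) down to TSPAN14 (7.87 to 5.90 FPKM).

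All 9 members fell (limma, adjusted p under 0.05), where 17.6% of all tested genes did, and none of them overlapped between groups, where 19.2% of tested genes were lower without overlap. Each was above 1 FPKM in every library. Their median log2 fold change was -0.56, against 0.13 over all tested genes. After TMM scaling it was -0.68 against 0.015, again with all 9 lower, where 24.3% of tested genes were. Among genes outside the family with at least 4 predicted membrane segments, 67.2% were lower as deposited and 75.5% after TMM scaling.

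The cell-surface members CD9, CD81, CD82 and CD151 are the main organizers of the tetraspanin web. CD81, which binds the immunoglobulin-type proteins IGSF8 and PTGFRN, was at 176.89, 198.75 and 192.29 FPKM in siControl and at 94.47, 92.85 and 93.19 FPKM in siOXTR. The siOXTR libraries lay within 2 FPKM of each other and well under the lowest siControl library. CD81 fell 2.02-fold (log2 fold change -1.01, SE 0.055, adjusted p = 2.04e-08, limma), and 2.24% of tested genes were lower still. CD82 (KAI1), known as a suppressor of metastasis, was at 37.55, 37.78 and 38.29 FPKM in siControl and 18.25, 19.19 and 18.46 FPKM in siOXTR. Both groups were tight, and CD82 fell 2.03-fold (log2 fold change -0.99, SE 0.051, adjusted p = 1.3e-08, limma).

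CD9, a surface tetraspanin with a role in cell motility and membrane fusion, was at 253.09, 272.93 and 263.24 FPKM in siControl and 163.92, 167.16 and 158.50 FPKM in siOXTR. Its fall of 1.61-fold (log2 fold change -0.69, SE 0.053, adjusted p = 4.6e-07, limma) was smaller than that of CD81, and the 95% intervals of the log2 fold changes, -0.80 to -0.57 for CD9 and -1.13 to -0.89 for CD81, did not overlap. CD151, which binds the laminin-binding integrins directly, was the most abundant member in each library, at 276.83, 321.88 and 330.67 FPKM in siControl and 209.61, 218.35 and 201.94 FPKM in siOXTR. The lowest siControl library stood apart from the other two, yet was above every siOXTR library. CD151 fell 1.48-fold (log2 fold change -0.56, SE 0.069, adjusted p = 3.38e-05, limma).

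CD63, a tetraspanin of late endosomes, lysosomes and exosomes, showed the widest spread within siOXTR. Its levels were 183.46, 195.76 and 214.45 FPKM in siControl and 132.46, 147.06 and 162.37 FPKM in siOXTR. The groups did not overlap, and CD63 fell 1.34-fold (log2 fold change -0.43, SE 0.077, adjusted p = 0.000611, limma). The coefficient of variation was 7.89% in siControl and 10.2% in siOXTR, against 0.914% for CD81 in siOXTR.

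TSPAN14 and TSPAN15 belong to the TspanC8 subgroup, whose members bind ADAM10 and bring it to the cell surface. TSPAN15 was at 32.36, 34.08 and 32.92 FPKM in siControl and 23.88, 25.29 and 24.71 FPKM in siOXTR, a fall of 1.34-fold (log2 fold change -0.41, adjusted p = 4.12e-05, limma). TSPAN14, the least abundant member, was at 8.50, 7.72 and 7.39 FPKM in siControl and 6.20, 5.95 and 5.55 FPKM in siOXTR. Its fall was the smallest of the 9 by a narrow margin (log2 fold change -0.36, SE 0.070, adjusted p = 0.000902, limma), and its 95% interval of -0.51 to -0.21 lay above those of CD81 and CD82 (-1.10 to -0.87). CD63, TSPAN14 and TSPAN15 were not ordered reliably: without siControl replicate 3 CD63 had a log2 fold change of -0.37 and TSPAN14 of -0.40, and without siOXTR replicate 1 they had -0.35 and -0.39.

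The other two members are less studied. TSPAN3 was at 56.31, 56.78 and 60.02 FPKM in siControl and 33.09, 36.90 and 36.86 FPKM in siOXTR, a fall of 1.62-fold (log2 fold change -0.68, adjusted p = 1.17e-06, limma). TSPAN4, known as a marker of migrasomes, the vesicles left on retraction fibres by migrating cells, was at 22.61, 24.75 and 20.68 FPKM in siControl and 15.69, 16.35 and 14.84 FPKM in siOXTR, a fall of 1.45-fold (log2 fold change -0.51, adjusted p = 7.24e-05, limma). TSPAN3 thus fell about as far as CD9, and TSPAN4 about as far as its neighbour CD151, with overlapping intervals in each case (-0.81 to -0.56 for TSPAN3, -0.66 to -0.36 for TSPAN4 and -0.71 to -0.41 for CD151).

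**Figure D2:**
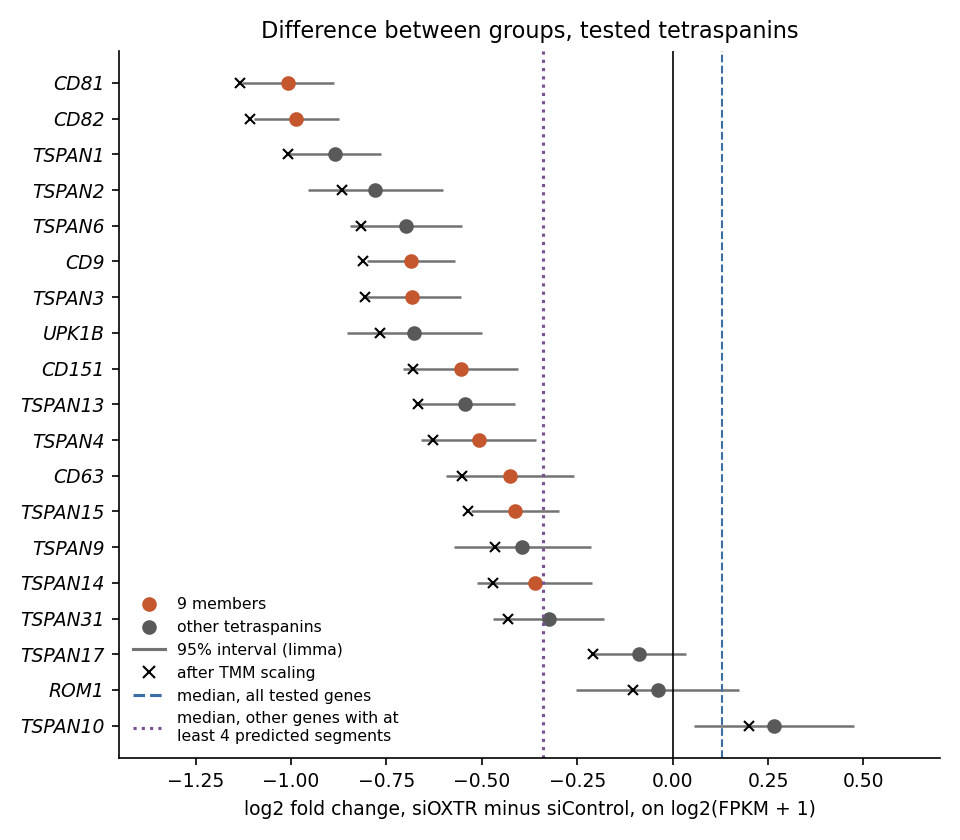
Log2 fold change (siOXTR minus siControl) with 95% limma intervals of the 19 tested tetraspanins, members in orange and other tetraspanins in grey, with crosses for TMM scaling and vertical lines at the medians of all tested genes (0.13) and of genes outside the family with at least 4 predicted membrane segments (-0.34). The 9 members lie between -1.01 (CD81) and -0.36 (TSPAN14), TSPAN17 and ROM1 have intervals that include 0, and TSPAN10 is the single tetraspanin above 0.

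The same direction held for most other tetraspanins with measurable mRNA. Of the 24 others, 22 were listed and 10 passed the filter of a mean of 1 FPKM, and of these 7 fell and 1 rose (median log2 fold change -0.47). That count is near the share of falls, 67.2%, among other genes with at least 4 predicted membrane segments. TSPAN1, an epithelial tetraspanin, went from 59.23, 64.92 and 63.41 to 31.91, 34.05 and 34.22 FPKM (log2 fold change -0.88, adjusted p = 6.92e-08, limma) and TSPAN13 from 70.61, 67.64 and 77.02 to 46.37, 49.87 and 50.39 FPKM (-0.54). On the log2 scale TSPAN2 fell by 0.78, TSPAN6 by 0.70, TSPAN9 by 0.39 and TSPAN31 by 0.32, as did UPK1B, a uroplakin of the urothelial surface, by 0.68.

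TSPAN17 and ROM1 did not pass the threshold. TSPAN17, a TspanC8 member, was at 23.34, 23.94 and 21.60 FPKM in siControl and 21.21, 21.82 and 21.57 FPKM in siOXTR (log2 fold change -0.09, 95% interval -0.21 to 0.035), and the groups overlapped. It passed as lower after TMM scaling (-0.21, adjusted p = 0.00997, limma). TSPAN10, also a TspanC8 member, rose from 0.88, 1.2 and 0.75 to 1.42, 1.30 and 1.26 FPKM (log2 fold change 0.27, adjusted p = 0.0314, limma). That call was lost after TMM scaling (0.20, adjusted p = 0.114) and without any one of the libraries except siControl replicate 2, with adjusted p-values from 0.0541 to 0.117. The 12 listed tetraspanins under the filter were at 0.93 FPKM or less in every library, among them the leukocyte tetraspanin CD53 (0 in 4 libraries, at most 0.04 FPKM) and the TspanC8 genes TSPAN5 and TSPAN33. TSPAN8 and CD37 were not analysed here. Across the 19 tested tetraspanins, which share the same libraries, the log2 fold change had a Pearson r of -0.505 and a Spearman rho of -0.484 with the log2 mean FPKM, and of 0.718 and 0.429 with coding length. Over the 9 members these were -0.276 and -0.367 for the level and 0.284 and 0.555 for coding length, so which set had the closer relation with coding length depended on the coefficient. The relation with level depends in part on the scale, which shrinks changes of low values: TSPAN2 fell 2.17-fold but entered as -0.78. The longest coding sequences, of TSPAN10 (1179 bases), ROM1 (1053) and TSPAN17 (996), belong to the tested tetraspanins not called lower as deposited. TSPAN10 and ROM1 were near 1 FPKM.

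Genes whose proteins had several predicted membrane segments were lower as a class. Outside the tetraspanin family, 689 tested genes, the siRNA target OXTR among them, had at least 4 predicted segments. Of these 463 (67.2%) fell and 44 (6.39%) rose, with a median log2 fold change of -0.34. With TMM scaling the counts were 520 lower (75.5%) and 17 higher (2.47%). In the whole tetraspanin family 16 of 19 tested genes fell and 1 rose (median -0.54), so the family's share of falls lay above that of such genes, a gap that was not tested. Genes with 1 to 3 predicted segments were lower in 34.2% of cases and those with none in 7.06%.

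The sum of the 9 genes was 1048, 1150 and 1160 FPKM in siControl and 698, 729 and 716 FPKM in siOXTR, a ratio of 1.57. As a part of all FPKM of the library it was 0.251%, 0.267% and 0.267% in siControl and 0.156%, 0.159% and 0.157% in siOXTR. They held most of the family's FPKM in both groups, 85.1% ± 0.568 in siControl and 84.8% ± 0.246 in siOXTR (SD, n = 3 each).

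**Figure D3:**
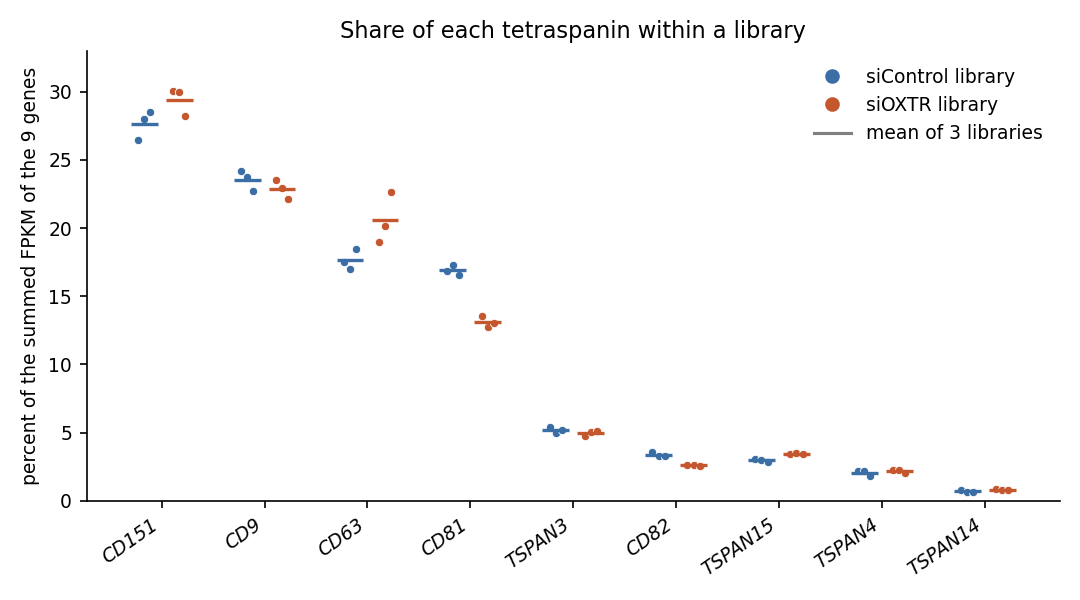
Percent of the summed FPKM of the 9 tetraspanins contributed by each gene in each library, with lines at the group means. The siOXTR points of CD81 and CD82 lie below and those of CD63 and TSPAN15 above the siControl points, and the other 5 genes overlap.

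The plot of shares shows the make-up of that sum. A gene's share of the sum does not depend on how a library is scaled, and the shares of a library add up to 100%. CD81 made up 16.9% of the sum on average in siControl and 13.1% in siOXTR. CD82 went from 3.39% ± 0.169 to 2.61% ± 0.0285 (SD, n = 3 each). The share of CD63 was higher, from 17.7% ± 0.749 to 20.6% ± 1.88, and TSPAN15 from 2.96% ± 0.125 to 3.45% ± 0.0227. For these 4 of the 9 shares the groups did not overlap, though for CD63 the gap was narrow. The highest siControl library had a CD63 share of 18.49% and the lowest siOXTR library one of 18.99%. Each of the 4 shares had an exact two-sided permutation p of 0.1 (0.225 adjusted over the 9 shares). A p of 0.1 is the smallest that 3 against 3 libraries can give, so that no share could pass the threshold. No such count was made for other sets of genes, so 4 of 9 is a description only. The shares of CD9, CD151, TSPAN3, TSPAN4 and TSPAN14 overlapped between groups.

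The order of levels differed in places. In siControl it ran CD151, CD9, CD63, CD81, TSPAN3, CD82, TSPAN15, TSPAN4 and TSPAN14, and the ranges of the 3 libraries overlapped between neighbours only for CD63 (183.46 to 214.45 FPKM) and CD81 (176.89 to 198.75 FPKM). In siOXTR CD63 (132.46 to 162.37 FPKM) was apart from CD81 (92.85 to 94.47 FPKM) and overlapped CD9 (158.50 to 167.16 FPKM) instead. CD82 was above TSPAN15 in siControl and below it in siOXTR, without overlap of their ranges in either group.

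**Figure D4:**
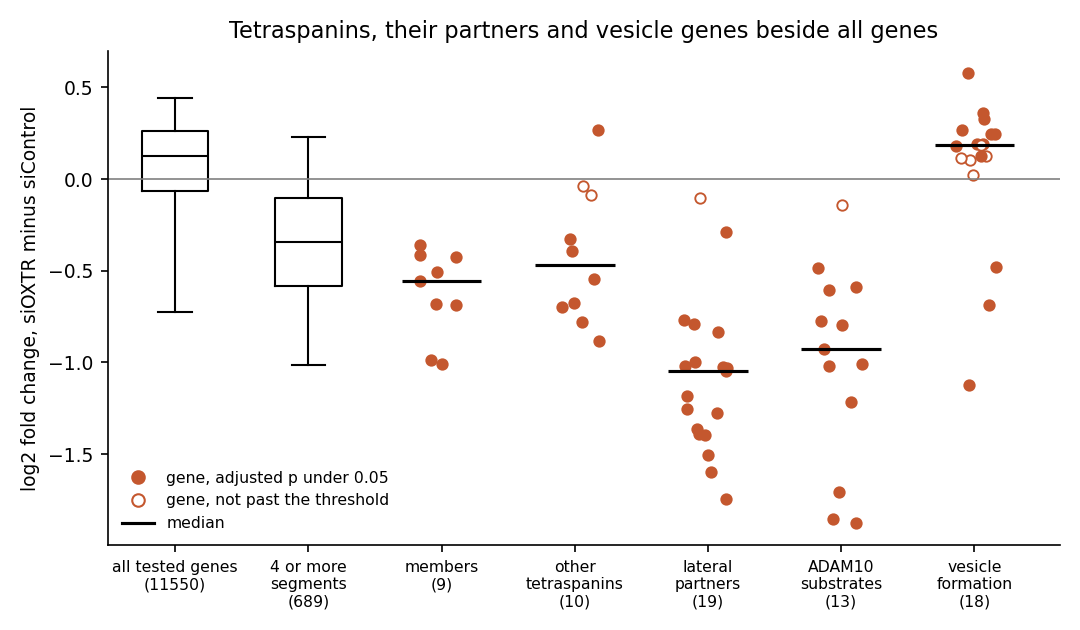
Log2 fold change (siOXTR minus siControl) of all tested genes and of genes with at least 4 predicted membrane segments outside the family (boxes: quartiles, whiskers: 5th to 95th percentile), and of single genes in 5 lists with lines at the medians. The lateral partners (median -1.05) and ADAM10 substrates (median -0.93) lie lower than the 9 members (median -0.56), and most vesicle genes lie above 0 (median 0.19 as deposited, 0.062 after TMM scaling).

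The partners that tetraspanins hold in the membrane fell more than the tetraspanins did in median. Of 19 listed partners 18 fell and none rose. Falls made up 17.6% of all tested genes and 34.2% of those with 1 to 3 predicted segments. The median log2 fold change of the partners as deposited was -1.05 and the lowest -1.75. After TMM scaling all 19 were lower, against 24.3% of all tested genes and 1214 of 2920 with 1 to 3 predicted segments. ITGB4 and ITGA6, which form the laminin-binding integrin of hemidesmosomes, fell 3.40-fold and 3.23-fold, and ITGA3, the integrin subunit most tightly tied to CD151, fell from 121.73, 126.84 and 114.90 to 56.04, 51.86 and 50.66 FPKM. MMP14, a membrane metalloprotease gene, fell 3.03-fold and ADAM10 from 104.13, 92.47 and 96.75 to 35.77, 36.42 and 37.23 FPKM (log2 fold change -1.40, SE 0.056, adjusted p = 1.5e-09, limma). MET, a receptor kinase gene, fell 2.66-fold. PTGFRN and IGSF8, the immunoglobulin-type partners of CD9 and CD81, fell 3.01-fold and 2.18-fold. HBEGF, the growth factor precursor that CD9 binds, was at 5.54, 6.07 and 6.24 FPKM in siControl and 5.31, 5.54 and 5.51 FPKM in siOXTR, with overlapping groups and no call as deposited (log2 fold change -0.11, adjusted p = 0.178, limma).

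Ratios within a library, which do not depend on its scaling, set tetraspanins against their known partners for 9 pairs chosen after the values were seen. CD151 stood at 1.49, 1.70 and 1.83 times the FPKM of ITGB4 in siControl and at 3.69, 4.09 and 3.79 times in siOXTR, and its ratio to ITGA6 rose 2.17-fold and to ITGA3 1.55-fold. The ratio of TSPAN15 to ADAM10 went from 0.340 ± 0.0289 to 0.675 ± 0.0167 and that of TSPAN14 to ADAM10 from 0.0805 ± 0.00368 to 0.162 ± 0.0122 (SD, n = 3 each). CD9 rose 1.59-fold relative to ITGB1 and 1.86-fold relative to PTGFRN. These 7 ratios were higher in every siOXTR library than in any siControl library. Each had an exact permutation p of 0.1, the smallest possible (0.129 adjusted over the 9 ratios). As the pairs were picked with the values known, these p-values lend no support. The ratios of CD81 to IGSF8 (8.93 ± 1.04 and 9.55 ± 0.386) and of CD63 to SDCBP (2.58 ± 0.106 and 2.70 ± 0.308) overlapped between groups. The 9 pairs leave out other listed partners, and no share over other gene pairs was computed. HBEGF, for one, fell only 1.09-fold, without a call, while CD9 fell 1.61-fold, so the ratio of CD9 to HBEGF went down. The 9 ratios thus do not stand for partners in general.

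Genes of ADAM10 substrates were lower as well, with 12 of 13 lower and none higher (median -0.93), where 17.6% of all tested genes and 34.2% of those with 1 to 3 predicted segments were lower. All 13 were lower after TMM scaling, against 24.3% of all and 1214 of 2920 genes with 1 to 3 predicted segments. CDH1 (E-cadherin) fell by 1.88 on the log2 scale, NOTCH3 3.73-fold, APP, the amyloid precursor, 3.65-fold, NOTCH2 2.52-fold and CD44, the hyaluronan receptor, 2.05-fold. BTC, the growth factor betacellulin, went from 5.38, 5.34 and 5.97 to 4.94, 5.35 and 4.58 FPKM, with overlapping groups and no call as deposited (adjusted p = 0.110, limma). Of the 4 tested TspanC8 genes, TSPAN14 and TSPAN15 fell, TSPAN17 did not pass the threshold and TSPAN10 rose as deposited but not after TMM scaling.

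Genes of extracellular vesicle formation did not stand out by their counts. Of 18 tested genes 3 fell and 10 rose as deposited, where 17.6% of all tested genes fell and 42.2% rose. TMM scaling left 3 falls and 3 rises, where it gave 24.3% and 19.6% over all genes. The 3 that fell encode the syndecans SDC1 and SDC4, membrane proteoglycans, and syntenin (SDCBP), the adaptor that binds their tails and that of CD63. SDC1 fell from 63.48, 63.66 and 57.22 to 27.93, 27.66 and 27.29 FPKM, SDC4 1.62-fold and SDCBP from 72.81, 77.59 and 79.28 to 52.63, 58.20 and 53.15 FPKM (log2 fold change -0.48, adjusted p = 2.6e-05, limma). TSG101, a cytosolic subunit of the ESCRT sorting machinery, rose from 57.65, 60.54 and 62.86 to 88.89, 91.58 and 91.00 FPKM (log2 fold change 0.58, adjusted p = 1.85e-06, limma), and CHMP2A by 0.36. TSG101, CHMP2A and FLOT1 were higher after TMM scaling too. Among the rises as deposited, PDCD6IP (ALIX), which works with syntenin and ESCRT, had a log2 fold change of 0.24 and of 0.12 after TMM scaling, where it did not pass the threshold.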

How the data were processed

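The deposited files hold FPKM from the authors, per gene in each library, per the file headers. The submitters' processing notes name GRCh38.p13 as build. No aligner, quantifier, annotation or filter is given in the sources used here. FPKM values summed to 417829 to 434167 in siControl and 446246 to 459595 in siOXTR. Depth is unknown: low values of single-transcript genes were searched for whole-fragment steps, and the best coherence was 0.125 to 0.209 of a possible 1.

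The 11550 of 17318 genes whose mean reached 1 FPKM entered a limma 3.58.1 fit of log2(FPKM + 1) values under R 4.3.3 (group only, mean trend, robust prior, two-sided, Benjamini-Hochberg over all tested genes, threshold 0.05), and no count model was used. The script was tested on simulated data. Folds are ratios of mean FPKM. TMM factors came from the FPKM, unweighted, trimming 30% of ratios and 5% of levels at each end. No 2 libraries of a group shared over 0.606% of values. Coding models (17038 genes) came from GENCODE release 29 by Entrez number. Coordinates of GRCh38 and its patch releases are the same on these chromosomes.

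The members, lists and comparisons were chosen with earlier results of these data known, so counts over lists are descriptions. From each list the text names up to 5 called genes with the largest change and up to 3 in the minority direction. CD81 and TSPAN14, the lowest and highest members, also give the 3 genes nearest in pattern. HBEGF, BTC, ITGA3, PTGFRN, IGSF8, PDCD6IP, FLOT1 and POLR2L were named after their values were seen. A listed leukocyte marker is not reported here and was left out of its sum.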

Additional observations from a re-analysis of the deposited data

How the results depend on the processing

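All 9 tetraspanins kept a lower level and an adjusted p under 0.05 (limma) under each of 14 alternatives (2 pseudocounts, 2 filters, 2 scalings, another prior, the replicate block and each library left out). With TMM scaling the log2 ratio of the 9-gene sum was -0.774, and on a TPM scale -0.733, against -0.648 as deposited. Leaving out 1 library, the sum's values moved by less than the spread between replicates. Genes called higher numbered 2267 with TMM and 2942 on the TPM scale against 4869, and vesicle genes called higher 3 and 4 against 10. Without siOXTR replicate 2 the vesicle count was 6. Of the other tetraspanins, the 1 called higher (TSPAN10) became 0 with TMM, on the TPM scale, without a filter and with a mean FPKM of at least 5, where 4 in place of 7 were called lower since fewer genes were tested. Over single left-out libraries that count was 0 to 1. TSPAN17 became lower with TMM and on the TPM scale (adjusted p = 0.0363, limma). The cause of the other shifts was not tested. Libraries with the same number correlated in their deviations at 0.107, 0.00421 and 0.160 over genes, and 2 of 6 correlated best with their own number. The labels give no shared source, so they were not treated as pairs. The replicate block gave 2105 lower and 5100 higher genes, against 2036 and 4869, and the same 9 members lower. Depth is unknown, so no limit of detection can be given for the tetraspanins listed near 0.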

Other observations

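TM4SF1 belongs to the L6 family, proteins with a tetraspanin-like arrangement in the membrane that are not tetraspanins by sequence. It was more abundant than any of the 9 tetraspanins, at 530.09, 530.95 and 573.73 FPKM in siControl and 430.85, 467.38 and 459.67 FPKM in siOXTR. It fell by 0.27 on the log2 scale (adjusted p = 0.00197, limma), less than any of the 9. The other 4 listed members of that family were at 0.44 FPKM or less in every library.

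The genes outside the family whose profile over the 6 libraries lay nearest to that of CD81, by Euclidean distance between mean-centred log2(FPKM + 1) values over 11531 genes, were ATP6AP1 (distance 0.0705), an accessory subunit of the vacuolar proton pump, POR (0.0806), the reductase of microsomal cytochromes P450, and PTDSS1 (0.0861), a phosphatidylserine synthase. ATP6AP1 went from 78.52, 86.74 and 81.83 to 41.26, 41.92 and 41.21 FPKM, so that its siOXTR libraries were as close together as those of CD81. Nearest to TSPAN14 were PAPPA (0.0576), a secreted metalloprotease gene, MTM1 (0.0700), a phosphoinositide phosphatase gene, and IL2RG (0.0866), a cytokine receptor gene. MTM1 went from 11.44, 10.19 and 10.49 to 8.52, 8.06 and 7.64 FPKM, while PAPPA and IL2RG were near 1 to 2 FPKM, where the scale compresses differences.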
